A study of Mus musculus with 27 samples.

Results

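GABA-A receptors are the chloride channels through which the transmitter GABA gives fast inhibition in the brain. Each channel is a ring of 5 subunits, usually alpha and beta subunits with a gamma or a delta subunit, and GABA binds between an alpha and a beta subunit. The alpha subunit largely sets the response to benzodiazepines, and receptors with a delta subunit lie mostly outside the synapse, where they answer to low GABA levels and to neurosteroids. The genes described here are 7 subunit genes: the alpha subunit genes Gabra2, Gabra3, Gabra4 and Gabra5, the beta subunit genes Gabrb1 and Gabrb2, and the delta subunit gene Gabrd. They were chosen by gene symbol, with earlier results of these data known. Each matched 1 Ensembl identifier, and they are 7 of the 52636 identifiers counted.

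RNA of the frontal cortex and the striatum of mice of the 129S1 strain, about 2.5 months old, was sequenced as single-end reads of 75 bp after removal of ribosomal RNA. Wild-type mice were compared with Igf2enh-/- mice, which are homozygous for the deletion of a 4.9 kb intergenic fragment between H19 and Igf2 and keep 1 loxP site there, after excision of the selection cassette by crossing with an Hprt-CRE female. Frontal cortex gave 6 wild-type and 6 Igf2enh-/- libraries, with 3 females and 3 males each, and striatum gave 7 wild-type libraries (3 females and 4 males) and 8 Igf2enh-/- libraries (4 of each sex). The deletion is intergenic, and whether it removes part of any counted identifier was not checked. Which samples of the 2 regions were taken from 1 mouse is not in the labels. Libraries are named by the number that opens their label, which is 1 to 12 in frontal cortex and 13 to 27 in striatum, so that region and the order of the libraries cannot be told apart.

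Libraries held 23686945 to 33926904 counts, and every subunit gene was well covered, with between 381 counts (the lowest for Gabra5) and 8810 counts (the highest for Gabra2) in a library. The regional labels were checked against marker genes. The summed level of 12 cortical projection neuron markers ran from 3024 to 3258 CPM (read counts scaled to a common library total, with factors from the trimmed mean of M-values, TMM) in frontal cortex and from 189 to 1581 CPM in striatum, and that of 12 medium spiny neuron markers from 470 to 566 CPM in frontal cortex and from 4973 to 13288 CPM in striatum. Striatal libraries stood apart from each other in these markers. Libraries 16, 19, 20, 23 and 26 held over 25% of the cortical marker level of the lowest cortex library, and library 20 (wild-type) was the highest in cortical and the lowest in medium spiny neuron markers. Library 15 (Igf2enh-/-) held 4592 CPM of 10 choroid plexus markers, against at most 368 CPM elsewhere. Oligodendrocyte markers also differed between the regions, from 981 to 2094 CPM in cortex and from 4841 to 10570 CPM in striatum, where library 20 was the highest, and so did GABAergic interneuron markers, from 836 to 937 CPM in cortex and from 351 to 603 CPM in striatum. Their part in the regional differences was not tested. The regional and the striatal genotype and sex results are given with all libraries. Values without the libraries that stood apart follow for the genes named there, steps that were added after the values were seen. Genes not named there may also have moved.

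Gabra3 and Gabra4, the alpha subunit genes of the 4 with the largest fall and the largest rise in log2 fold change from cortex to striatum, lie on different chromosomes and are read from the minus strand. Gabra3 (ENSMUSG00000031343) is X-linked, at chrX:72432676-72656919, and Gabra4 (ENSMUSG00000029211) is at chr5:71569734-71658308 (RefSeq, GRCm38.p6). The 250 bases before each RefSeq start are printed 5′ to 3′ on the strand of the gene, and capitals mark motifs found on either strand. The pair was picked by its regional changes and the windows of the other members are not shown. A link between these bases and the regional changes therefore cannot be read from them.
Gabra3, chrX:72656920-72657169: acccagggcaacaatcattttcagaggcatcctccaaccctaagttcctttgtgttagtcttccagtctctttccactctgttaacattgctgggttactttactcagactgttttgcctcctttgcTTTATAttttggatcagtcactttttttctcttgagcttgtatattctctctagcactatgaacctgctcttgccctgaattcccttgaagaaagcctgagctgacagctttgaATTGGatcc
Gabra4, chr5:71658309-71658558: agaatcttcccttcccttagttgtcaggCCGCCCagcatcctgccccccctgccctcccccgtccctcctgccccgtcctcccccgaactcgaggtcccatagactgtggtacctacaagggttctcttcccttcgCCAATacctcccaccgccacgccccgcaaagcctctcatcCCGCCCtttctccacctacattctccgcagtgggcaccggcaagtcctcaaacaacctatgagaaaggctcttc
The Gabra3 window was 42.4% G and C with 0 CpG pairs, and the Gabra4 window was 61.2% G and C with 12 CpG pairs, around a median of 52.4% over the 32851 RefSeq windows of this length. Of all windows, 16.9% had less G and C than that of Gabra3 and 74.8% less than that of Gabra4. Of the motifs searched on both strands, TATAAA stood in 12.4% of all windows, CCAAT in 33.8%, GGGCGG in 32.7%, CACGTG in 6.02% and TGACG in 17.8%. Gabra3 held TATAAA with its first printed base 123 bases before the start and CCAAT 9 bases before it, both on the opposite strand. Gabra4 held CCAAT 114 bases before its start on the printed strand and GGGCGG 222 and 74 bases before it on the opposite strand, and no 2 of these matches overlapped. A match of letters is not a binding site.

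The question of the regional comparison was which subunit genes differ between striatum and frontal cortex in mice of the same genotype. All 7 differed in wild-type mice, with 3 higher in striatum (Gabra2, Gabra4 and Gabrd) and 4 lower (Gabra3, Gabra5, Gabrb1 and Gabrb2), and the same 7 differed in the same directions in Igf2enh-/- mice. These counts stand against 67.7% of the 13414 genes tested in wild-type mice (34.5% higher and 33.2% lower) and 68.9% in Igf2enh-/- mice (34.5% higher and 34.5% lower), so that a called difference between the regions is common to most genes. The sizes ranged widely. Only 2.34% of tested genes had a larger absolute log2 fold change than Gabra3 in wild-type mice, and 53.3% had a larger one than Gabra2. The median absolute log2 fold change of the 7 was 0.69 in wild-type and 0.83 in Igf2enh-/- mice, beside 0.23 and 0.24 over all genes tested. The 7 were chosen with earlier results of these data known, so these medians are a description only. The libraries are bulk tissue, in which fewer cells of a type and less RNA per cell cannot be told apart.

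**Figure D1:**
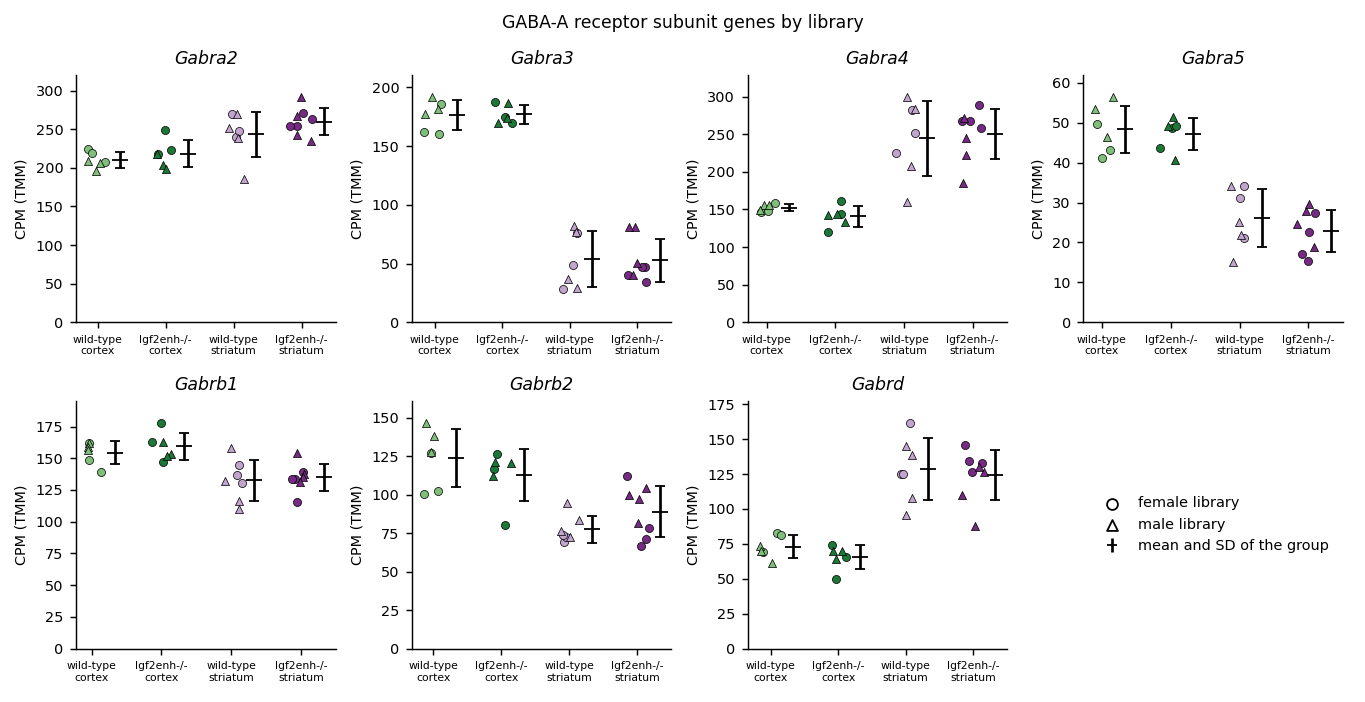
TMM-scaled CPM (y axis, from 0) of the 7 subunit genes in each of the 27 libraries, by genotype and region (x axis), with circles for female and triangles for male libraries and the mean and SD of each group beside the points. Gabra3 and Gabra5 lie lower and Gabrd higher in every striatal than in any cortical library, and the genotypes overlap in each region for all 7 genes.

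Gabra3 showed the largest regional difference of the 7. Its alpha3 subunit marks GABA-A receptors of particular cell groups, among them monoaminergic neurons and neurons of the thalamic reticular nucleus, and it is also found in cortex. In wild-type frontal cortex Gabra3 ran from 160 to 192 CPM (median 179; mean 176 ± 12.9, SD, n = 6), and in wild-type striatum from 28.1 to 82.3 CPM (median 49.0; mean 54.1 ± 23.8, SD, n = 7). In Igf2enh-/- mice it ran from 169 to 188 CPM in frontal cortex (median 174; mean 177 ± 8.28, SD, n = 6) and from 34.2 to 81.5 CPM in striatum (median 47.0; mean 52.7 ± 18.4, SD, n = 8). The regions did not overlap in either genotype, and the spread was wider in striatum than in cortex. The log2 fold change, striatum over frontal cortex, was -1.72 in wild-type mice (standard error 0.220, adjusted p = 2.03e-07, edgeR's quasi-likelihood test with Benjamini-Hochberg adjustment), a level 0.303 times that of cortex, and -1.77 in Igf2enh-/- mice (standard error 0.212, adjusted p = 6.27e-08).

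Within striatum, Gabra3 fell into separate levels. Libraries 16, 19, 20, 23 and 26 lay between 76.2 and 82.3 CPM, and the other 10 between 28.1 and 50.3 CPM. These 5 are the libraries set apart by cortical projection neuron markers (791 to 1581 CPM, against 189 to 680 CPM in the other 10), and their summed medium spiny neuron markers ran from 4973 to 9469 CPM, against 10370 to 13288 CPM in the other 10. The 5 comprise 3 wild-type and 2 Igf2enh-/- libraries. Without them, a step added after the values were seen, the regional log2 fold change was -2.29 in wild-type (standard error 0.124) and -2.02 in Igf2enh-/- mice (standard error 0.105), and without libraries 15 and 20 it was -1.83 and -1.72.

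Gabra5 was the other alpha subunit gene with a lower level in striatum. Its alpha5 subunit is known above all from the hippocampus, in receptors that carry tonic inhibition. Gabra5 (ENSMUSG00000055078; chr7:57407669-57591016) ran from 41.1 to 56.5 CPM in wild-type cortex (median 48.1; mean 48.4 ± 5.94, SD, n = 6) and from 15.1 to 34.2 CPM in wild-type striatum (median 25.2; mean 26.1 ± 7.31, SD, n = 7). Igf2enh-/- mice had 40.7 to 51.4 CPM in cortex (median 48.9; mean 47.1 ± 4.05, SD, n = 6) and 15.4 to 29.6 CPM in striatum (median 23.6; mean 22.9 ± 5.35, SD, n = 8). Every cortical library lay above every striatal library. The log2 fold change was -0.89 in wild-type (standard error 0.160, adjusted p = 2.63e-05, edgeR) and -1.04 in Igf2enh-/- mice (standard error 0.155, adjusted p = 1.67e-06, edgeR).

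Gabra4 and Gabrd moved the other way. The alpha4 and delta subunits are known to assemble with each other in extrasynaptic receptors that do not bind classical benzodiazepines, in thalamus, dentate gyrus and striatum. Gabra4 ran from 146 to 158 CPM in wild-type cortex (median 152; mean 152 ± 4.96, SD, n = 6) and from 160 to 299 CPM in wild-type striatum (median 252; mean 244 ± 49.8, SD, n = 7). In Igf2enh-/- mice it ran from 120 to 161 CPM in cortex (median 143; mean 141 ± 13.6, SD, n = 6) and from 185 to 289 CPM in striatum (median 263; mean 251 ± 33.2, SD, n = 8). The regions did not overlap within a genotype, but striatal library 20, the lowest, reached the level of the highest Igf2enh-/- cortex library. The log2 fold change was 0.69 in wild-type (standard error 0.109, adjusted p = 4.54e-06, edgeR) and 0.83 in Igf2enh-/- mice (standard error 0.106, adjusted p = 1.82e-07, edgeR), a level 1.61 and 1.78 times that of cortex.

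Gabrd (ENSMUSG00000029054; chr4:155384979-155398098) had the largest rise of the 7 genes in both genotypes. It ran from 61.2 to 83.1 CPM in wild-type cortex (median 71.5; mean 72.9 ± 8.11, SD, n = 6) and from 95.6 to 161 CPM in wild-type striatum (median 125; mean 128 ± 22.3, SD, n = 7). Igf2enh-/- mice had 49.8 to 74.0 CPM in cortex (median 67.6; mean 65.4 ± 8.43, SD, n = 6) and 87.4 to 146 CPM in striatum (median 128; mean 124 ± 18.0, SD, n = 8). The regions did not overlap over all 27 libraries. The log2 fold change was 0.83 in wild-type (standard error 0.110, adjusted p = 3.43e-07, edgeR) and 0.92 in Igf2enh-/- mice (standard error 0.107, adjusted p = 4.23e-08, edgeR). Reads of Gabrd per read of Gabra4 stayed near each other in the regions, from 0.392 to 0.568 in cortex and from 0.460 to 0.674 in striatum, and their ranges overlapped.

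Gabra2 was the alpha subunit gene whose level changed least. Its alpha2 subunit is abundant at forebrain synapses and on the axon initial segment. Gabra2 (ENSMUSG00000000560; chr5:70958392-71095849) ran from 195 to 224 CPM in wild-type cortex (median 209; mean 210 ± 10.3, SD, n = 6) and from 185 to 270 CPM in wild-type striatum (median 248; mean 243 ± 28.7, SD, n = 7). Igf2enh-/- mice had 198 to 249 CPM in cortex (median 218; mean 218 ± 17.6, SD, n = 6) and 235 to 292 CPM in striatum (median 259; mean 260 ± 17.7, SD, n = 8). The regions overlapped in both genotypes, and in wild-type striatum library 20 lay below the rest, the next being at 239 CPM. The log2 fold change was 0.22 in wild-type (standard error 0.0637, adjusted p = 0.00420, edgeR) and 0.25 in Igf2enh-/- mice (standard error 0.0619, adjusted p = 0.000764, edgeR).

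Both beta subunit genes were lower in striatum. Beta subunits are needed for channel assembly and traffic to the membrane and carry the site of the anaesthetics etomidate and propofol. Gabrb1 (ENSMUSG00000029212; chr5:71657921-72149572) ran from 139 to 162 CPM in wild-type cortex (mean 154 ± 8.82, SD, n = 6) and from 110 to 158 CPM in wild-type striatum (mean 133 ± 16.1, SD, n = 7). In Igf2enh-/- mice it ran from 147 to 178 CPM in cortex (mean 159 ± 10.8, SD, n = 6) and from 116 to 154 CPM in striatum (mean 135 ± 10.5, SD, n = 8). The regions overlapped in both genotypes, and the fitted difference was small, with a log2 fold change of -0.22 in wild-type (standard error 0.0679, adjusted p = 0.00627, edgeR) and -0.24 in Igf2enh-/- mice (standard error 0.0657, adjusted p = 0.00248, edgeR). Gabrb1 and Gabra4 start within each other's spans on opposite strands, with 388 bp in common, and whether the counting used strand is not given in the sources used here, so reads in those bases may have been assigned to either gene.

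Gabrb2 (ENSMUSG00000007653; chr11:42419515-42632591) ran from 100 to 146 CPM in wild-type cortex (median 127; mean 124 ± 18.8, SD, n = 6) and from 69.5 to 94.7 CPM in wild-type striatum (median 73.8; mean 77.6 ± 8.78, SD, n = 7). In Igf2enh-/- mice it ran from 80.1 to 126 CPM in cortex (median 119; mean 113 ± 16.7, SD, n = 6) and from 66.9 to 112 CPM in striatum (median 89.4; mean 89.0 ± 16.6, SD, n = 8). The regions were apart in wild-type mice and overlapped in Igf2enh-/- mice, where the low cortex value was library 1. Without library 1 they were apart there too, with the lowest cortex value at 112.4 CPM and the highest striatal value at 112.1 CPM. The log2 fold change was -0.68 in wild-type (standard error 0.105, adjusted p = 3.10e-06, edgeR) and -0.34 in Igf2enh-/- mice (standard error 0.101, adjusted p = 0.00411, edgeR). The difference between these changes did not pass its own test, given with the genotype comparisons.

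Counted over the genes, the ranges of the regions did not overlap for 5 of the 7 in wild-type mice (Gabra3, Gabra4, Gabra5, Gabrb2 and Gabrd), against 37.8% of all genes tested. Among Igf2enh-/- libraries it was 4 of the 7, without Gabrb2, against 41.9%, and over both genotypes together 3 of the 7 (Gabra3, Gabra5 and Gabrd), against 25.9%. These counts moved with single libraries. Without library 1 it was 6 of the 7 in Igf2enh-/- mice, Gabra2 and Gabrb2 being added, and without library 20 it was 6 in wild-type mice. Without the 5 libraries of high cortical marker level it was 7 in wild-type and 5 in Igf2enh-/- mice. The share of all genes was not computed without these libraries. The shares above do not apply to these counts, which therefore say nothing particular of the 7 genes. All 7 genes kept their call and direction in both genotypes without libraries 15 and 20, without the 5 libraries of high cortical marker level and without each single library. The smallest absolute log2 fold change over those and the other alternatives was 0.17, for Gabrb1 in wild-type mice. Beside Gabra3, given above, all changes were larger in size without the 5 libraries of high cortical marker level. In wild-type mice they were 0.31 for Gabra2, 0.88 for Gabra4, -1.06 for Gabra5, -0.25 for Gabrb1, -0.69 for Gabrb2 and 0.98 for Gabrd. In Igf2enh-/- mice they were 0.27, 0.93, -1.16, -0.26, -0.37 and 1.02 in that order.

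**Figure D2:**
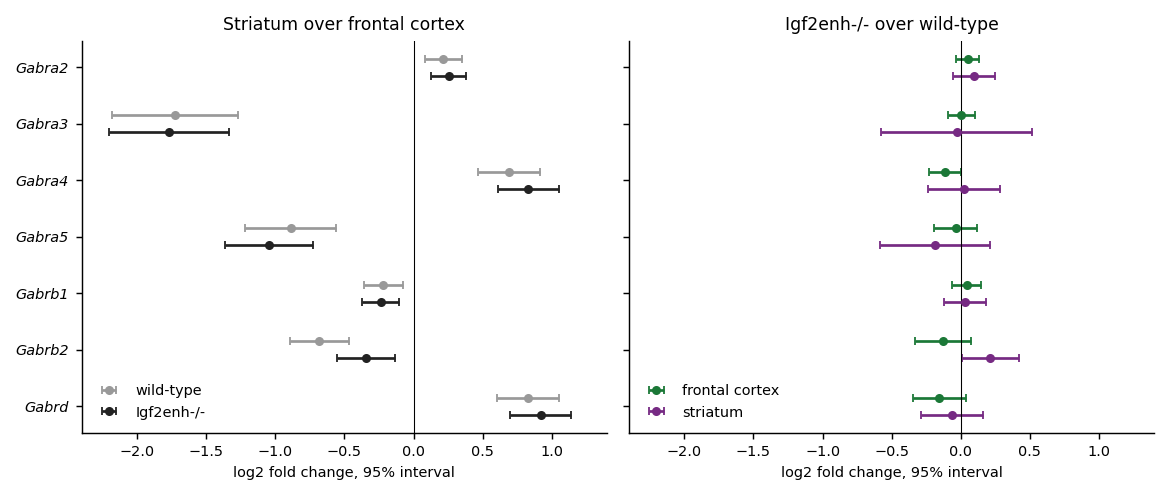
Log2 fold change (x axis) of the 7 genes (rows) with its 95% interval from edgeR's quasi-likelihood fit. The left panel gives striatum over frontal cortex in wild-type (grey) and Igf2enh-/- mice (black), with every interval away from 0, and the right panel gives Igf2enh-/- over wild-type in frontal cortex (green) and striatum (purple), with all changes between -0.19 and 0.21.

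The 7 genes are not all the GABA-A subunit genes, so their sum is not a total of subunit RNA. The part of all alpha subunit reads held by the 4 alpha genes differed between the regions, as given below. The sum of the 7 genes differed little between the regions. It was 939 ± 40.5 CPM in wild-type cortex (SD, n = 6) and 907 ± 76.9 CPM in wild-type striatum (SD, n = 7), and 921 ± 22.9 CPM in Igf2enh-/- cortex (SD, n = 6) and 934 ± 31.3 CPM in Igf2enh-/- striatum (SD, n = 8). These regional differences in the sum were smaller than the spread between libraries of a group, and the lower wild-type mean rested on library 20, at 740 CPM. Without it wild-type striatum had 934 ± 25.3 CPM (SD, n = 6), which moved the regional difference from -32.0 to -4.24 CPM, and without the 5 libraries of high cortical marker level the difference was 7.06 CPM in wild-type and 21.8 CPM in Igf2enh-/- mice.

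The make-up of the alpha subunit reads differed more. In each library, the reads of Gabra2, Gabra3, Gabra4 and Gabra5 were taken as shares of their sum. Gabra3 held 30.0 ± 1.28% in wild-type cortex (SD, n = 6) and 9.91 ± 5.27% in wild-type striatum (SD, n = 7), and 30.4 ± 1.45% and 9.08 ± 3.43% in Igf2enh-/- cortex and striatum (SD, n = 6 and n = 8). It was thus the gene of second largest share in cortex and the third in striatum. The lowest cortical library was at 28.5% and the highest striatal library, number 20, at 18.3%.

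Gabra4 took the opposite course, with 25.9 ± 0.432% in wild-type cortex (SD, n = 6) and 42.7 ± 5.47% in wild-type striatum (SD, n = 7), and with 24.1 ± 2.18% and 42.7 ± 4.76% in Igf2enh-/- mice (SD, n = 6 and n = 8). Its range ended at 26.7% in cortex and began at 32.9% in striatum, so that the shares of the regions did not overlap although the CPM did. Gabra2 held 35.8 ± 1.92% and 42.8 ± 1.26% in wild-type cortex and striatum (SD, n = 6 and n = 7), and 37.4 ± 2.65% and 44.3 ± 2.16% in Igf2enh-/- mice (SD, n = 6 and n = 8). Its share was the largest of the 4 in cortex and level with that of Gabra4 in wild-type striatum. Gabra5 held 8.22 ± 0.829% and 4.64 ± 1.32% in wild-type mice (SD, n = 6 and n = 7), and 8.09 ± 0.758% and 3.93 ± 0.999% in Igf2enh-/- mice (SD, n = 6 and n = 8), with no overlap of the regions. That separation depended on the denominator. As a share of all alpha subunit reads, Gabra5 ran from 3.47 to 4.69% in cortex and from 1.85 to 4.32% in striatum, so that the regions overlapped, and its difference between them was -0.80 percentage points in wild-type and -1.35 in Igf2enh-/- mice, against -3.59 and -4.16 over the 4 genes. Without the 5 libraries of high cortical marker level the differences over the 4 genes in wild-type mice were -24.0 points for Gabra3, 20.8 for Gabra4, 7.58 for Gabra2 and -4.34 for Gabra5, where they had been -20.1, 16.8, 6.93 and -3.59.

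**Figure D3:**
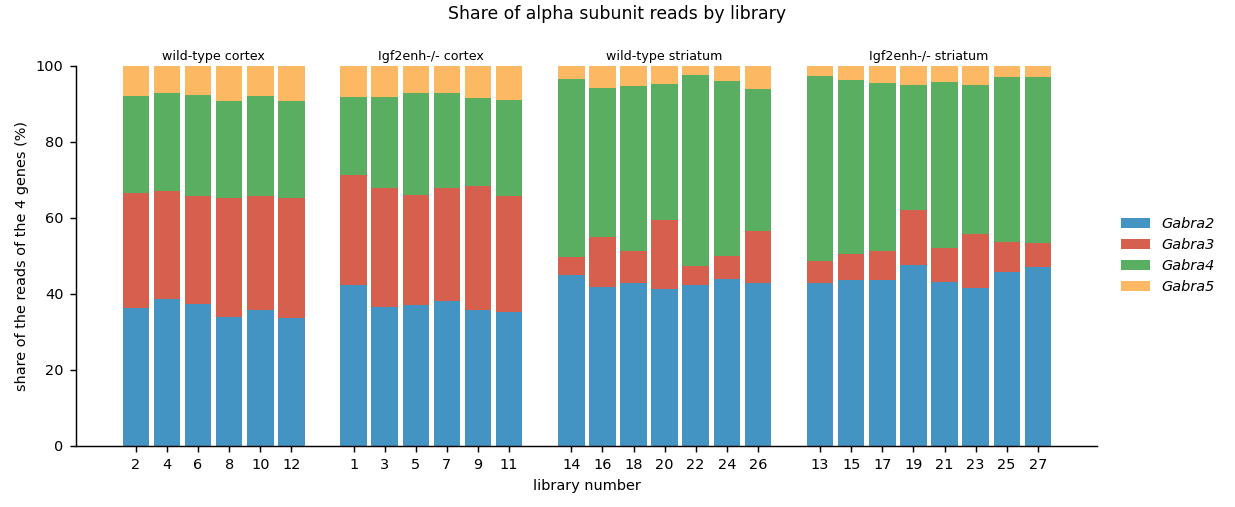
Share of each of the 4 alpha subunit genes in their summed reads (y axis, percent) for each library (bars, with library numbers on the x axis), grouped by genotype and region. The Gabra3 segment is 28.5% or more in every cortex library and 18.3% or less in every striatal library, and the 5 striatal libraries with the widest Gabra3 segments are 16, 19, 20, 23 and 26.

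Reads of Gabra4 per read of Gabra3 put the pair side by side. The ratio ran from 0.704 to 0.927 in cortex and from 1.95 to 10.3 in striatum, with the lowest striatal value in library 20. Within the beta genes, Gabrb2 held 44.3 ± 2.63% of the reads of Gabrb1 and Gabrb2 in wild-type cortex (SD, n = 6) and 37.0 ± 2.93% in wild-type striatum (SD, n = 7), and 41.4 ± 5.08% and 39.5 ± 3.97% in Igf2enh-/- mice (SD, n = 6 and n = 8), with overlapping ranges in both genotypes.

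Read shares weigh a gene by its length. Divided by exon length (2392 bases for Gabra2, 3924 for Gabra3, 4127 for Gabra4 and 2653 for Gabra5 in the GENCODE vM1 models, not the annotation of the counting), Gabra3 held 23.9% and 7.77% in wild-type cortex and striatum, Gabra4 19.6% and 31.9%, Gabra2 46.8% and 55.0%, and Gabra5 9.69% and 5.37%. The directions were those of the read shares. The 4 genes are not all alpha subunit genes. Over all alpha subunit genes in the tables they held 49.6 ± 0.559% of the reads in wild-type cortex (SD, n = 6) and 71.1 ± 7.57% in wild-type striatum (SD, n = 7), with no overlap but for 1 Igf2enh-/- cortex library, at 56.4%, that lay above the lowest striatal library, at 55.0%. In Igf2enh-/- mice they held 51.0 ± 2.95% and 72.0 ± 5.30% (SD, n = 6 and n = 8).

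Levels of different genes can be set beside each other only per length. Per kb of exon, the order in wild-type cortex was Gabra2 (87.9 ± 4.29 CPM per kb, SD, n = 6), Gabrb1 (50.0 ± 2.86), Gabra3 (45.0 ± 3.29), Gabra4 (36.9 ± 1.20), Gabrd (25.4 ± 2.82), Gabra5 (18.2 ± 2.24) and Gabrb2 (12.5 ± 1.89), and of these neighbours only Gabrb1 and Gabra3 overlapped. In wild-type striatum the order was Gabra2 (101.7 ± 12.0 CPM per kb, SD, n = 7), Gabra4 (59.2 ± 12.1), Gabrd (44.7 ± 7.77), Gabrb1 (42.9 ± 5.20), Gabra3 (13.8 ± 6.08), Gabra5 (9.84 ± 2.76) and Gabrb2 (7.82 ± 0.885). Here only Gabra2 stood clear of the next gene, and Gabrb1 of Gabra3. The model of Gabrb2 is 9922 bases long and those of the other genes at most 4127, and the order rests on these lengths.

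The 7 genes were then compared by genotype, the question being whether loss of the Igf2 enhancer goes with a change in subunit expression in either region. In frontal cortex 0 of the 7 passed the test, where 0.38% of 13936 genes did (0.129% higher and 0.251% lower). At an unadjusted p under 0.05 it was 0 of the 7 in edgeR's quasi-likelihood fit, where 13.5% of all genes were, and the likelihood ratio test and DESeq2 called 0 as well. The log2 fold changes, Igf2enh-/- over wild-type, ran from -0.16 for Gabrd to 0.05 for Gabra2, with Gabra5 at -0.04. The intervals were narrow: for Gabra3 the change was 0.00 with a 95% interval from -0.09 to 0.10. That of Gabrd reached farthest from 0, from -0.35 to 0.03 (adjusted p = 0.462, edgeR), and that of Gabrb2 was the widest, from -0.33 to 0.07. Library 1 was the lowest of the Igf2enh-/- cortex libraries for Gabra4, Gabrb2 and Gabrd and the highest for Gabra2 and Gabrb1. Without it the change of Gabrd was -0.08, that of Gabrb2 moved from -0.13 to -0.06, that of Gabra4 from -0.12 to -0.07, that of Gabra2 from 0.05 to 0.02 and that of Gabrb1 from 0.04 to 0.00. Library 1 also held the lowest summed level of oligodendrocyte markers in cortex (981 CPM, against 1478 to 2094 CPM in the others), and the part of this in its values was not tested.

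In striatum 0 of the 7 passed, where 0.036% of 13875 genes did, and the likelihood ratio test and DESeq2 also called 0. At an unadjusted p under 0.05, where 10% of all genes were, it was 1 of the 7, Gabrb2, with a log2 fold change of 0.21 (95% interval 0.01 to 0.42, adjusted p = 0.484, edgeR). Its libraries ran from 69.5 to 94.7 CPM in wild-type and from 66.9 to 112 CPM in Igf2enh-/- mice and overlapped. The other 6 had log2 fold changes from -0.19 for Gabra5 to 0.09 for Gabra2. Without the 5 libraries of high cortical marker level the change of Gabra3 turned from -0.03 to 0.26 (standard error 0.155) and that of Gabra4 from 0.02 to -0.07 (standard error 0.0611), that of Gabra2 fell from 0.09 to 0.02, that of Gabrd went from -0.06 to -0.12, and 0 of the 7 passed. Without libraries 15 and 20 Gabra3 was at 0.10, Gabra4 at -0.06, Gabra2 at 0.04 and Gabrb1, at 0.03 with all libraries, at -0.02. The intervals were wider than in cortex for the genes that varied most between striatal libraries: that of Gabra3 ran from -0.58 to 0.52, so that a change of that size could not have been told from none. No gene of the 7 had genotype ranges that did not overlap in either region, against 1.33% of 13414 genes in cortex and 0.231% in striatum.

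The difference of the genotype effect between the regions was tested in one model over the 27 libraries. It passed for 0 of the 7 genes and for 0% of the 13414 genes tested, and the likelihood ratio test and DESeq2 also gave 0. At an unadjusted p under 0.05 it was 1 of the 7, Gabrb2, and 3.02% of all genes. For Gabrb2 the difference was 0.34 on the log2 scale (95% interval 0.04 to 0.64, adjusted p = 1.00, edgeR), which is also the difference between its regional changes in the genotypes. Its estimated change was negative in cortex (95% interval -0.33 to 0.07) and positive in striatum, and neither passed its own test. For the other 6 the difference lay between -0.16 (Gabra5) and 0.14 (Gabra4), Gabrb1 being at -0.02, with intervals that included 0. Without the 5 libraries of high cortical marker level the difference for Gabra3 turned from -0.04 to 0.27 (standard error 0.155), that for Gabra4 went from 0.14 to 0.05 and that for Gabra2 from 0.04 to -0.04. Without library 1 the difference for Gabrb2 was 0.27, that for Gabra4 0.09, that for Gabra2 0.07 and that for Gabrd 0.01, where it had been 0.09. Without libraries 15 and 20 that for Gabra3 was 0.11. The alpha subunit shares by genotype overlapped in both regions for all 4 genes, and the means differed by 1.80 percentage points at most, which was the Gabra4 share in cortex. Without library 1 that difference was 1.05 points, and the largest was then 1.54 points, for the Gabra2 share in striatum. Without the 5 libraries of high cortical marker level the Gabra4 shares in striatum differed by 1.79 points and the Gabra3 shares by 1.29 points, the latter in the other direction than with all libraries.

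Sex was compared because Gabra3 is X-linked. In frontal cortex 0 of the 7 passed, where 0.0431% of genes did (0.00718% higher in males and 0.0359% lower), and at an unadjusted p under 0.05, where 7.56% of all genes were, it was 2: Gabra2, lower in males (log2 fold change, male over female, -0.12, standard error 0.0395, adjusted p = 0.520, edgeR), and Gabrb2, higher in males (0.23, standard error 0.0939, adjusted p = 0.624, edgeR). The likelihood ratio test and DESeq2 called 0. Library 1, a female, was the highest of the cortex libraries for Gabra2 and the lowest for Gabrb2, and without it the changes were -0.09 and 0.16. Gabra3 ran from 160 to 188 CPM in females and from 169 to 192 CPM in males in cortex, with a log2 fold change of 0.05 (95% interval -0.04 to 0.15). In cortex Gabra4 was at 0.00, Gabra5 at 0.11, Gabrb1 at 0.01 and Gabrd at -0.05. Without library 1 these were at -0.04, 0.13, 0.05 and -0.13 in that order. In striatum 0 of the 7 passed, where 0.0432% of genes did, and 0 had an unadjusted p under 0.05, where 10.8% of all genes had one. The likelihood ratio test and DESeq2 called 0 there as well. There the change of Gabra3 was 0.37 with a 95% interval from -0.18 to 0.92, and 4 of the 5 striatal libraries of high cortical marker level are male. Without those 5 it was -0.03. With all libraries Gabra2 was at -0.05, Gabra4 at -0.17, Gabra5 at 0.03, Gabrb1 at 0.01, Gabrb2 at 0.20 and Gabrd at -0.22. Without the 5 libraries they were at 0.03, 0.02, -0.12, -0.02, 0.14 and -0.04 in that order. Unadjusted p was 0.0550 for Gabrd and 0.0585 for Gabrb2 with all libraries (edgeR).

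Some of the subunit genes varied between striatal libraries with the regional markers. How common such a relation is among all genes was not computed, so it is not shown to be particular to these 7. Since Gabra3 formed separate levels, no relation was computed over all 15 libraries, and the 5 libraries of high cortical marker level were too few for one of their own. Over the other 10 (4 wild-type and 6 Igf2enh-/-), log2 CPM was set against the log2 of the summed cortical projection neuron markers for each of the 7 genes, with two-sided permutation tests adjusted over the 7. Gabra3 rose with the markers (Pearson's r = 0.958, permutation p = 6.00e-05, adjusted 0.000280; Spearman's rho = 0.952, permutation p = 0.000140, adjusted 0.000980). Gabra4 fell with them (r = -0.932, permutation p = 8.00e-05, adjusted 0.000280; rho = -0.915, permutation p = 0.000480, adjusted 0.00168), as did Gabrd (r = -0.853, permutation p = 0.00330, adjusted 0.00770; rho = -0.855, permutation p = 0.00326, adjusted 0.00570). Without the 2 libraries farthest from the median the r values were 0.920, -0.963 and -0.843.

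Gabrb1 also rose with the markers (r = 0.743, permutation p = 0.0279, adjusted 0.0488; rho = 0.903, permutation p = 0.000780, adjusted 0.00182; r = 0.723 without the 2 farthest). Gabra5 passed the adjusted threshold by rank only (r = 0.642, permutation p = 0.0462, adjusted 0.0647; rho = 0.709, permutation p = 0.0262, adjusted 0.0367; r = 0.605 without the 2 farthest). Gabra2 (r = -0.244, permutation p = 0.486, adjusted 0.567; rho = -0.345, permutation p = 0.328, adjusted 0.382; r = -0.548 without the 2 farthest) and Gabrb2 (r = 0.143, permutation p = 0.725, adjusted 0.725; rho = 0.152, permutation p = 0.683, adjusted 0.683; r = 0.0870 without the 2 farthest) did not pass by either measure. Of the genes that passed, Gabra3, Gabra5 and Gabrb1, higher in cortex, had positive values, and Gabra4 and Gabrd, lower in cortex, had negative ones. Gabrb2, also higher in cortex, and Gabra2, lower in cortex, did not pass. The markers are themselves higher in cortex, so these signs are no separate support for the regional differences. The part of these markers in the regional differences was not tested.

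**Figure D4:**
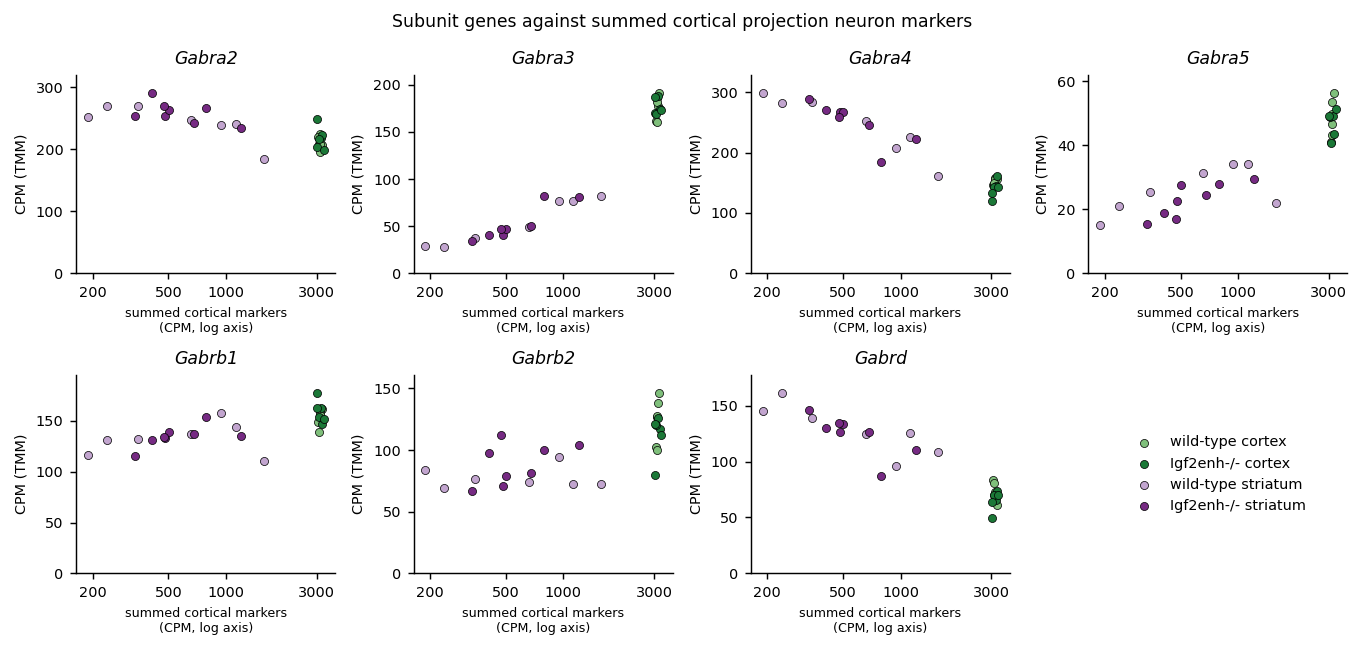
TMM-scaled CPM of each gene (y axis, from 0) against the summed CPM of 12 cortical projection neuron markers (x axis, log scale) in all 27 libraries, coloured by genotype and region. Among the striatal libraries Gabra3 is highest and Gabra4 lowest in those with 791 to 1581 CPM of the markers, and every cortex library lies at 3024 CPM or more.

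The genes most like each subunit gene were taken as the 2 with the highest Pearson correlation of log2 CPM over the 27 libraries after removal of the means of group and sex. This is a description, and the libraries share the gradient of regional markers given above. For Gabra3 they were Stmn2 (r = 0.986) and Ncald (r = 0.985), for Gabra4 Atp2b1 (r = 0.955) and Camk2b (r = 0.953), and for Gabrd Asphd2 (r = 0.945) and Slc16a6 (r = 0.943). For Gabra2 they were Dlx6os1 (r = 0.913), an antisense gene whose reads may be shared with its partner where strand was not used, and Alcam (r = 0.886), for Gabra5 Pcsk5 (r = 0.902) and Slc25a22 (r = 0.902), for Gabrb1 6330439K17Rik (r = 0.902) and Rasgrf1 (r = 0.901), and for Gabrb2 Zyg11b (r = 0.928) and Lmbrd2 (r = 0.903). Among the 7 themselves, the same measure was 0.760 between Gabra4 and Gabrd, 0.743 between Gabra5 and Gabrb1, 0.692 between Gabra3 and Gabra5, -0.737 between Gabra3 and Gabrd, and -0.821 between Gabra3 and Gabra4, the 5 of the 21 pairs largest in size.

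Other genes of GABA signalling are given by list, beside the 67.7% and 68.9% of all genes called between the regions in wild-type and Igf2enh-/- mice. Whether a list differs from these shares was not tested. Of 12 further GABA-A subunit genes 5 were tested, and in each genotype 2 were higher in striatum, 2 were lower and 1 was not called. Of 8 genes for synthesis, packaging, uptake and breakdown of GABA, 5 were higher and 1 was lower in striatum in both genotypes. The vesicular GABA transporter gene Slc32a1 had a log2 fold change of 1.51 in wild-type mice (standard error 0.0979), the GABA transaminase gene Abat 0.99 (standard error 0.0672) and the glutamate decarboxylase gene Gad2 1.17 (standard error 0.109), and the transporter gene Slc6a13 was lower, by -1.87 (standard error 0.154), with adjusted p at or below 1.22e-09 in edgeR for these 4. The summed level of meningeal fibroblast markers, cells in which Slc6a13 is also known, ran from 59.3 to 140 CPM in cortex and from 21.5 to 78.5 CPM in striatum, and its part in the Slc6a13 value was not tested.

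The 4 tested genes of the GABA-B receptor, the metabotropic receptor, split evenly in both genotypes, with Kctd8 (1.42, standard error 0.162, in wild-type mice) and Gabbr1 (0.16, standard error 0.0353) higher and Gabbr2 (-1.71, standard error 0.201) and Kctd16 (-0.28, standard error 0.0829) lower in striatum. Of 14 tested genes of the inhibitory postsynaptic scaffold and receptor partners, 6 were higher and 5 lower in wild-type mice, and 6 and 4 in Igf2enh-/- mice. Nlgn2, a cell adhesion protein of inhibitory synapses, was lower (-0.30, standard error 0.0286), Shisa7, an auxiliary subunit of GABA-A receptors, was higher (0.77, standard error 0.0818), and so was Insyn1 (0.75, standard error 0.0962), in wild-type mice.

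Of 14 genes of receptor assembly, trafficking and anchoring, 6 were higher and 5 lower in wild-type mice and 5 and 4 in Igf2enh-/- mice. Nsf, which drives membrane fusion and binds beta subunits, was lower in striatum (-0.67, standard error 0.0502), and Rdx, the radixin that anchors alpha5 receptors, was higher (0.34, standard error 0.0318), in wild-type mice. Of 6 genes of the neuronal chloride gradient, 1 was higher and 4 were lower in wild-type mice and 2 and 4 in Igf2enh-/- mice. The chloride importer gene Slc12a2 was higher (0.77, standard error 0.111) and the exporter gene Slc12a5 lower (-0.23, standard error 0.0335) in wild-type striatum. These are values of bulk tissue and do not show levels in neurons. All 8 oligodendrocyte markers were higher in wild-type striatum too, and the part of such cells in these values was not tested. By genotype, 0 genes of any of these lists passed in either region in edgeR's quasi-likelihood test.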

How the data were processed

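Gene counts of 27 mouse libraries were analysed. Per the labels and the methods, Trim Galore 0.5.0 cut bases of low quality and STAR placed the reads on GRCm38 with GENCODE vM15 genes; the authors deposited raw counts per gene. The series text gives the genotype totals the other way round from the labels, which were used. Whether counting used strand is not given in the sources used here. The tables held 0 columns of other series. TMM factors ran from 0.979 to 1.03.

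A gene entered a fit when no library of that fit was below 1 CPM. Genes were tested by quasi-likelihood in edgeR 4.0.16 (R 4.3.3), with Benjamini-Hochberg adjustment over all genes tested and a threshold of 0.05. Genotype and sex were fitted in each region as the study did, and a model over all 27 libraries with 1 term per group and sex gave the regional comparisons. Libraries were treated as independent mice, so p-values measure the spread between these libraries. Standard errors are the absolute log2 fold change over the square root of F. Permutation tests drew 100000 resamples (SciPy). Alternatives included the study's likelihood ratio test, DESeq2 1.42.0, other scaling and filters, and leaving out libraries. Shares are described without a test. The fits were tested on simulated data.

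Members and lists were chosen with earlier results of these data known. All 7 members are named in each comparison, up to 4 called genes of smallest p of the other lists, and the 2 genes most like each member. Single values of the other GABA-A subunit genes are not reported here. Lhfpl3 and Kctd12 were not analysed here. Sequences are RefSeq's (GRCm38.p6), and 6 of the 7 members had an entry, all but Gabrd.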

Additional observations from a re-analysis of the deposited data

Results flagged for a closer look

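Of 44 combinations of gene, measure (log2 CPM or alpha subunit share) and group, 3 held a library far from the rest by Dixon's criterion, which chance meets in about 1 of 20 groups. In Igf2enh-/- frontal cortex, library 1 lay at 80.1 CPM for Gabrb2, with the next at 112 CPM, and at 49.85 CPM for Gabrd, with the next at 63.85 CPM. In wild-type striatum, library 20 lay at 185 CPM for Gabra2, with the next at 239 CPM.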

How the results depend on the processing

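The count of called subunit genes was 7 in both regional comparisons under all 37 alternatives of each, and 0 by genotype in frontal cortex (20 alternatives), in striatum (25) and for the difference of the genotype effect (36), leaving out each library included. By sex it was 0 in striatum (24 alternatives) and in frontal cortex (19) but for 1 setting: without a filter on low counts it was 1, Gabrb2, with a log2 fold change of 0.23 and an adjusted p of 0.0371, which lay between 0.0371 and 0.922 over its alternatives. The cause was not tested. Directions of uncalled changes were less stable: by genotype in striatum, leaving out single libraries turned the sign for Gabra3, Gabra4 and Gabrb1. Counts over all genes moved by genotype and sex. In frontal cortex 53 genes passed, against 232 with the likelihood ratio test, 247 with DESeq2, 459 without a filter and 29 with the RNA integrity number (8 to 99 without single libraries), and in striatum 5, against 56, 112 and 10, 13 with edgeR's own filter, and 3 without the sex term or the 5 libraries of high cortical marker level (3 to 8 without single libraries). By sex 6 passed in frontal cortex, against 28, 21, 185 and 13 with edgeR's own filter, and 6 in striatum, against 12, 16, 14 and 12, with 3 without libraries 15 and 20 and 1 without the 5. Shares kept their direction. Over all alpha subunit genes, a denominator added after the values were seen, the difference in share (striatum minus frontal cortex, in percentage points) changed in size. It was 12.7 in wild-type and 12.7 in Igf2enh-/- mice for Gabra2 (6.93 and 6.88 over the 4 genes). For Gabra3 it was -8.13 and -9.11 (-20.1 and -21.3), and for Gabra5 it was -0.80 and -1.35 (-3.59 and -4.16). Per kb, in Igf2enh-/- mice, it was -16.9 for Gabra3 and 13.6 for Gabra4 (18.6 over reads). No paired analysis was possible because each library has a number of its own and the labels do not tie the regions of a mouse together.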
